A study of Drosophila melanogaster with 9 samples.

Results

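The T-box genes encode transcription factors that share a DNA-binding domain first described in the mouse gene Brachyury. All rows of the deposited expression matrix named bi, Doc1, Doc2, Doc3, mid, H15, org-1 or byn were taken, which gave 8 genes of the 14797 in the file. RNA had been sequenced from 9 libraries of Kc167 cells, a Drosophila cell line of embryonic origin with hemocyte (blood cell) properties. Each group held 3 libraries. The first received control dsRNA, the second dsRNA against ph and E(z), and the last dsRNA against ph, E(z) and CtBP. Every culture was given 15 µg of dsRNA and harvested on day 7. All libraries come from 1 cell line, no group received CtBP dsRNA alone, and the labels do not name what the control dsRNA targets.

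T-box proteins bind a short DNA element as activators or repressors, and in the fly embryo they mark particular tissues. bi (optomotor-blind) acts downstream of Dpp signalling in the wing disc and in the optic lobe. Doc1, Doc2 and Doc3, the Dorsocross genes, are clustered and act largely redundantly in the amnioserosa, dorsal ectoderm and heart. mid and H15 are neighbouring genes of the ventral ectoderm and heart, org-1 acts in the visceral and somatic muscle, and byn, the fly Brachyury, specifies the hindgut. Polycomb complexes, which the ph and E(z) dsRNAs target, keep many developmental regulators silent outside their tissue, and CtBP is a corepressor recruited by DNA-binding repressors.

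By the dm6 annotation, the genes lie at 5 places on 3 chromosome arms. The Dorsocross genes occupy 39.8 kb of 3L, with Doc3 at 9005196 to 9007249, Doc2 at 9012686 to 9019246 and Doc1 at 9041375 to 9045042. byn lies on the same arm at 11927693 to 11935919. On 2L, H15 spans 5404280 to 5416593 and mid spans 5461639 to 5467610, with 45.0 kb between them. On X, bi covers 4412856 to 4485647 and org-1 covers 8447691 to 8455069. mid was matched to this annotation by its symbol, because its deposited identifier, FBgn0005511, is FBgn0261963 there, and the other 7 were matched by identifier.

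The libraries were of similar depth. In each of them, the lowest values of long genes with a single annotated transcript clustered at a common step, the value of 1 fragment, which was 0.113 to 0.132 FPKM on a transcript of 1 kb. FPKM stands for fragments scaled to transcript length and to the number of mapped fragments. The targets were lowered as labelled for E(z), at 31.2 to 43.4 FPKM in control and 8.29 to 12.1 in the 6 other libraries, and for CtBP, at 41.8 to 65.8 FPKM where it was targeted and 189 to 221 elsewhere. ph-p lay at 18.9 and 18.1 FPKM in control replicates 2 and 3 and at 7.15 to 10.3 in the treated libraries, but at 4.64 in the library labelled control replicate 1. That library stood apart from its group. Ribosomal protein genes held 39.6% of its FPKM against 26.4% to 30.8% elsewhere. Of 11 hemocyte markers 10 reached 0.5 FPKM in at least 1 library.

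The family was expressed at a low level in control cells and the order of its members changed with treatment. The 8 genes together summed to 1.27, 2.75 and 3.49 FPKM in the control libraries, to 6.51, 8.90 and 9.48 with ph+E(z) RNAi, and to 8.20, 8.30 and 5.60 with all 3 targets. All 6 treated libraries lay above all 3 controls. In control cells org-1 was the highest, at 1.75 ± 0.949 FPKM (SD, n = 3), above Doc2 at 0.428 ± 0.134, with no overlap. Doc3, Doc1 and mid followed at 0.193, 0.0779 and 0.0530 FPKM, and neighbours in that order overlapped. With ph+E(z) RNAi org-1, Doc2 and bi came first, at 3.14 ± 0.776, 2.54 ± 1.35 and 1.62 ± 0.753 FPKM, and each overlapped the next. With all 3 targets org-1 at 4.92 ± 1.26 stood above Doc2 at 1.09 ± 0.0716, and Doc2 above Doc3 at 0.555 ± 0.222, both without overlap. org-1 accounted for 54.4% to 74.2% of the family's FPKM in control libraries, 27.9% to 62.1% with ph+E(z) RNAi and 62.0% to 70.9% with all 3 targets. In bulk RNA, fewer cells expressing a gene and less RNA per cell cannot be told apart.

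**Figure D1:**
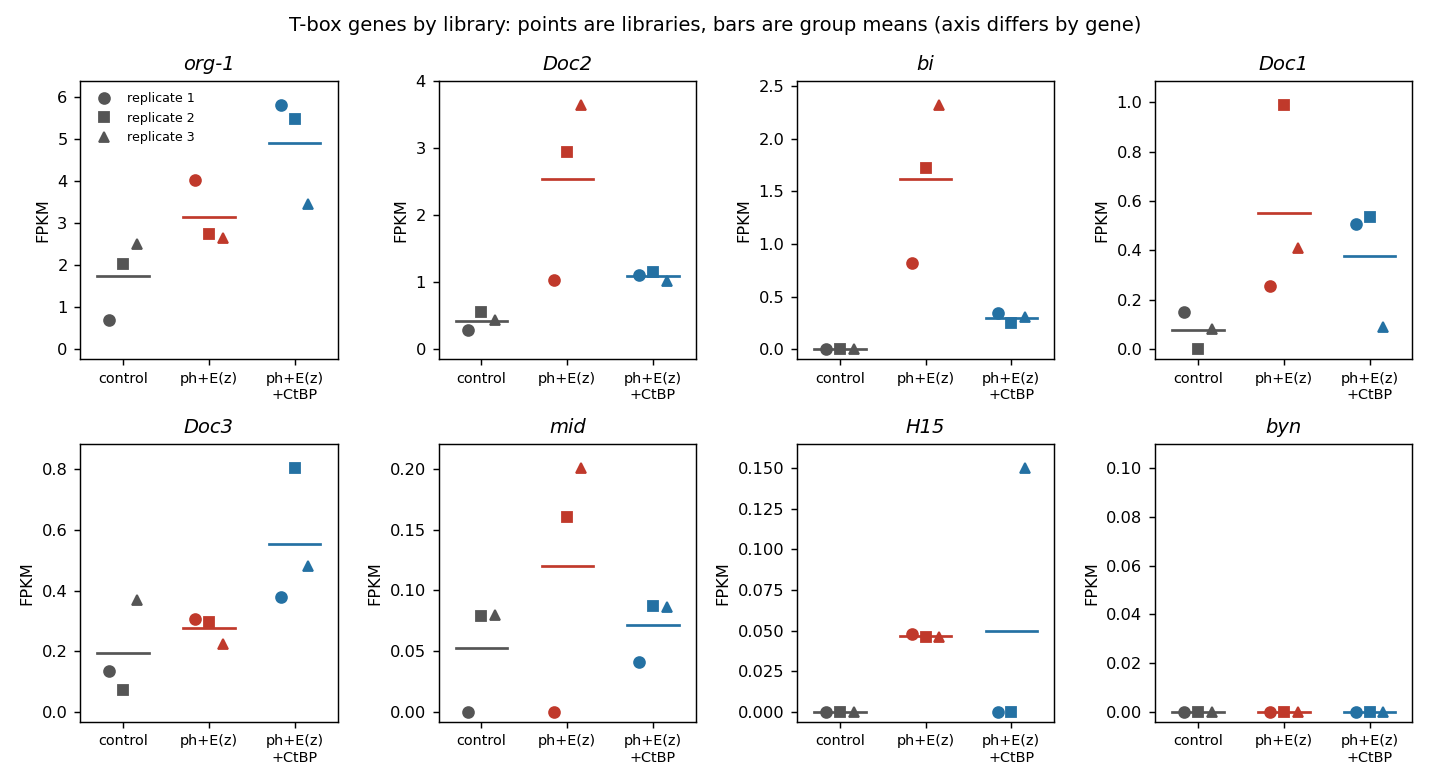
FPKM of the 8 T-box genes (one panel each, vertical axes that include 0 and differ by gene) in the 3 groups, with a symbol for each replicate and a bar at the group mean. bi is listed at 0 in all 3 control libraries and is highest with ph+E(z) RNAi, at 0.820 to 2.32 FPKM, while org-1 is highest with all 3 targets, at 3.47 to 5.81 FPKM.

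Differences were tested on log2(FPKM + 0.5) for genes that reached 0.5 FPKM in 3 or more libraries, and a gene was called at an adjusted p of 0.05 or less over all 8853 such genes. Whether a group's libraries came from different cultures is not stated in the labels, and the p-values reflect the spread among these libraries, which may be technical. Of the 8 T-box genes 4 could be tested, bi, Doc1, Doc2 and org-1. bi qualified only through the ph+E(z) libraries and Doc1 only through treated libraries, so their passing was bound up with being higher there. Doc2 reached the level in 7 libraries and org-1 in all 9. Against control, ph+E(z) RNAi gave calls for 3.92% of all tested genes, with 2.58% higher and 1.34% lower, and bi and Doc2 were among those higher. The addition of CtBP RNAi gave calls for 3.72%, with 1.94% higher and 1.77% lower, and bi was among those lower. All 3 targets against control gave calls for 9.73%, with 5.58% higher and 4.15% lower, and no T-box gene was called by limma, although bi and org-1 had an unadjusted p under 0.05, as did 2426 of all 8853 genes.

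bi rose with ph+E(z) RNAi and fell when CtBP was also targeted. It was listed at 0 FPKM in control replicates 1, 2 and 3, at 0.820, 1.73 and 2.32 with ph+E(z) RNAi, and at 0.346, 0.246 and 0.309 with all 3 targets. The 3 groups did not overlap, which between 2 groups held for 26.7% of all tested genes with ph+E(z) RNAi against control, 31.2% with the addition of CtBP RNAi and 36.3% for all 3 targets against control. With 7 annotated transcripts of 4048 to 5613 bases, the values correspond to roughly 31, 68 and 92 fragments with ph+E(z) RNAi and 13, 9 and 11 with all 3 targets. A limit of 3 fragments in a control library would be at most 0.0839 to 0.0903 FPKM, below every treated library. A listed 0 can also be a failed estimate, since 37 mitochondrial genes, which every cell uses, were at 0 throughout.

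The fitted difference of bi with ph+E(z) RNAi was 2.02 ± 0.28 (SE) on the log2(FPKM + 0.5) scale, with an adjusted p of 0.00685 by limma. Its size is set by the pseudocount, being 4.0 with 0.1 and 1.35 with 1 added to FPKM. The rise was called under all 19 alternatives in which bi could be tested. The adjusted p was 0.0322 in the 2-group fit and at most 0.0468, when ph+E(z) 2 was omitted (limma). bi qualified only through the ph+E(z) libraries and could not be tested with at least 1 FPKM required. Controls at 0 with no spread enter the estimate of error of this rise too. With CtBP also targeted, bi differed from ph+E(z) RNAi by -1.34 ± 0.28 (adjusted p = 0.0400), from a mean of 1.62 ± 0.753 to 0.300 ± 0.0508 FPKM. The control libraries, all at 0 with no spread, take part in this estimate of error; fitted on the 2 compared groups alone the adjusted p was 0.0480. Omitting a single library ended the call in 7 cases: control 2 (adjusted p = 0.0710), control 3 (0.0709), ph+E(z) 2 (0.169), ph+E(z) 3 (0.152), and library 1 (0.127), 2 (0.147) or 3 (0.0879) of those with all 3 targets. The difference stayed between -0.97 and -2.0 over all alternatives. With all 3 targets against control bi differed by 0.68 ± 0.28 and was not called (adjusted p = 0.166). In the authors' deposited table bi had a q-value of 0.00102 in both of their comparisons, the smallest value in the table, which 354 and 311 genes shared.

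**Figure D2:**
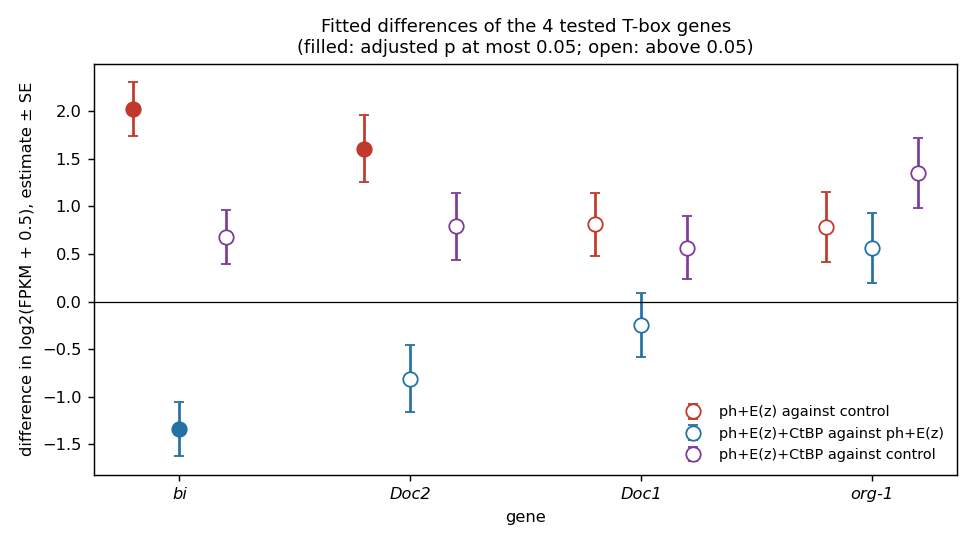
Fitted differences in log2(FPKM + 0.5) with their SE for the 4 tested T-box genes in the 3 comparisons, filled where the adjusted p was at most 0.05. bi lies at 2.02 and -1.34, Doc2 at 1.60 and -0.81, Doc1 at 0.81 and -0.25, and org-1 is positive in all 3 comparisons.

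Among the Dorsocross genes, Doc2 was the one called. Doc1 and Doc2 had their highest mean with ph+E(z) RNAi and Doc3 with all 3 targets. Doc2 lay at 0.289, 0.557 and 0.438 FPKM in control libraries, at 1.04, 2.94 and 3.64 with ph+E(z) RNAi, and at 1.11, 1.15 and 1.02 with all 3 targets. On its 1 annotated transcript of 1945 bases these are about 5, 9 and 7, then 16, 47 and 58, then 17, 17 and 15 fragments. Replicate 1 of the ph+E(z) group was as low as the libraries with all 3 targets, and both treated groups lay above control.

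Doc2 rose by 1.60 ± 0.35 with ph+E(z) RNAi (limma, adjusted p = 0.0447), close to the threshold, and groups did not overlap, as in 26.7% of tested genes. The call was lost in 14 of 20 alternatives, all with a positive difference of 1.23 to 2.18. Among them was the omission of control 1 (0.0676), control 2 (0.0876), control 3 (0.118), ph+E(z) 2 (0.191), ph+E(z) 3 (0.167), or library 1 (0.0804), 2 (0.0799) or 3 (0.0628) of those with all 3 targets. With CtBP also targeted Doc2 differed by -0.81 ± 0.35 and was not called (adjusted p = 0.336), but once ph+E(z) 1 was omitted it was called, at -1.24 (0.0247). With all 3 targets against control Doc2 differed by 0.79 ± 0.35 (adjusted p = 0.188, or 0.0482 once ph+E(z) 1 was omitted). The authors' deposited table gives q-values of 0.00191 and 0.0167 for Doc2, and it lists Doc1, Doc3, mid, H15 and byn as not tested.

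For Doc1, Doc3, mid and H15, the transcript length was chosen that brought all 9 values nearest to whole multiples of 1 fragment. At that length the values lay within 0.05 of a whole fragment. The chosen lengths were 1486, 1646, 3047 and 2651 bases. The annotated lengths are 1339 to 1526, 1671, 2139 to 2920 and 2617 to 2926 bases. Only lengths in or close to the annotated range were tried, so nearness to the annotation was set in advance. The length for mid lies above its annotated range. The fragments given for these genes are counts at the chosen lengths, and intervals on them cover counting error only.

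Doc1 measured 0.152, 0 and 0.0821 FPKM in control libraries, which is 2, 0 and 1 fragments. Under ph+E(z) RNAi Doc1 had 0.255, 0.987 and 0.412 FPKM (3, 12 and 5 fragments), and with all 3 targets 0.505, 0.535 and 0.0889 (6, 6 and 1). The ph+E(z) libraries lay above all controls, and such a lack of overlap held for 26.7% of tested genes. Replicate 3 with all 3 targets lay among the controls. The summed fragments were 3 (95% exact Poisson interval 0.619 to 8.77) in control, 20 (12.2 to 30.9) with ph+E(z) RNAi and 13 (6.92 to 22.2) with all 3 targets. Across libraries Doc1 differed by 0.81 ± 0.33 with ph+E(z) RNAi (limma, adjusted p = 0.255), by -0.25 ± 0.33 with the addition of CtBP RNAi (0.857) and by 0.56 ± 0.33 for all 3 targets against control (0.299). The second of these turned to 0.03 when ph+E(z) 2 was omitted and to 0.02 when library 3 with all 3 targets was omitted.

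Doc3 measured 0.137, 0.0732 and 0.370 FPKM in control libraries, or 2, 1 and 5 fragments. It measured 0.307, 0.296 and 0.223 with ph+E(z) RNAi (4, 4 and 3 fragments) and 0.379, 0.804 and 0.481 with all 3 targets (5, 10 and 6). The libraries with all 3 targets lay above the other 6, where groups did not overlap in 31.2% of tested genes against ph+E(z) RNAi and 36.3% against control. The summed fragments were 8 (3.45 to 15.8), 11 (5.49 to 19.7) and 21 (13.0 to 32.1). Doc3 was tested only without a filter, where it differed by 0.18 ± 0.20, 0.43 ± 0.20 and 0.61 ± 0.20 in the 3 comparisons and was called in none (limma, adjusted p = 0.674, 0.438 and 0.122).

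**Figure D3:**
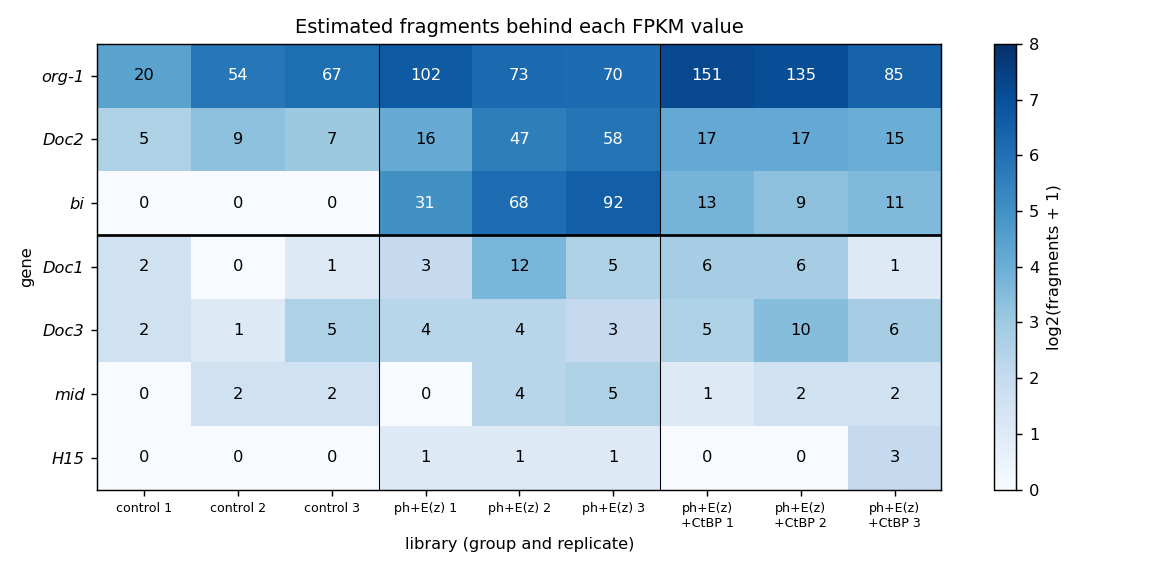
Estimated sequenced fragments behind each FPKM value of 7 T-box genes (rows) in the 9 libraries (columns), with colour on a log2(fragments + 1) scale. Counts above the horizontal line are approximate, from annotated transcript lengths. Those below it are whole numbers at a fitted transcript length and range from 0 to 12, whereas org-1 holds 20 to 151. byn, listed at 0 everywhere, is left out.

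mid and H15 were near the limit of detection in every group. mid measured 0, 0.0791 and 0.0800 FPKM in control, 0, 0.16 and 0.201 with ph+E(z) RNAi, and 0.0410, 0.0870 and 0.0867 with all 3 targets. These are 4 fragments (1.09 to 10.2), 9 fragments (4.12 to 17.1) and 5 fragments (1.62 to 11.7) summed over each group, and the groups overlapped. H15 was listed at 0 in all control libraries, at 1 fragment in each ph+E(z) library (0.0479, 0.0463 and 0.0463 FPKM), and at 0, 0 and 3 fragments with all 3 targets (0, 0 and 0.15 FPKM). Neither was called without a filter, with an adjusted p of 0.604 for mid and 0.586 for H15 with ph+E(z) RNAi. byn was listed at 0 in all 9 libraries, where 3 fragments would have given at most 0.130 to 0.152 FPKM. At this depth differences of a few fragments in mid, H15 or byn were not detectable. A level like that of bi with ph+E(z) RNAi, at 0.820 FPKM or more, was listed for none of them in any library.

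org-1, the most abundant member in control cells, had its highest mean with all 3 targets. It lay at 0.688, 2.04 and 2.52 FPKM in control, at 4.04, 2.75 and 2.64 with ph+E(z) RNAi, and at 5.81, 5.48 and 3.47 with all 3 targets, or about 20 to 67, 70 to 102 and 85 to 151 fragments. Both treated groups lay above control, at the closest 2.64 against 2.52 FPKM, and non-overlap with control was found in 26.7% and 36.3% of tested genes. The treated groups overlapped each other. org-1 differed by 0.78 ± 0.37 with ph+E(z) RNAi (limma, adjusted p = 0.314), by 0.56 ± 0.37 with the addition of CtBP RNAi (0.588) and by 1.35 ± 0.37 for all 3 targets against control (0.0554). The low control value came from the library labelled control replicate 1. Without it the first difference was 0.38 (0.445) and the last 0.94, then called (0.0449). The last was also called with 1 added to FPKM (0.0477), with quantile normalization (0.0400) and with array weights (0.00158). The authors' deposited table gives q-values of 0.0757 and 0.127 for org-1.

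The likeness of profiles was measured as the root mean square difference of log2(FPKM + 0.5) over the 9 libraries, after subtraction of each gene's mean. Within the family, bi and Doc2 were the closest pair, at 0.276, against 0.517 for Doc1 and Doc2, 0.651 for Doc1 and bi, and 0.963 for bi and org-1. Outside the family, genes known by a CG or CR number only were left out here and below, so a closer one may exist. Among the rest, the nearest to bi were the LIM homeobox gene Lim1 (0.129), the perlecan gene trol (0.194) and TwdlU (0.204), of the Tweedle family of cuticle proteins. The median over all tested genes was 0.934. Lim1 measured 0, 0.0747 and 0.0756 FPKM in control libraries, 0.745, 2.31 and 2.65 with ph+E(z) RNAi, and 0.426, 0.411 and 0.327 with all 3 targets. It thus shared with bi the low ph+E(z) replicate 1 and the low level with all 3 targets, which a search for similar profiles favours. Doc2 was nearest to Lim1 (0.233), the LIM homeobox gene tup (0.244) and trol (0.262), with a median of 0.815. tup lay at 0.520, 2.51 and 3.12 FPKM with ph+E(z) RNAi and 0.477, 0.389 and 0.581 with all 3 targets.

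Doc1 was nearest to the gelsolin gene Gel (0.205), Sp212 (0.232) and the unconventional myosin gene Myo61F (0.243), with a median of 0.574. Gel lay at a mean of 158 FPKM in control, 329 with ph+E(z) RNAi and 261 with all 3 targets. org-1 was nearest to Msi (0.148), the matrix metalloproteinase gene Mmp2 (0.164) and Pka-R2 (0.181), which encodes a regulatory subunit of protein kinase A, with a median of 0.750. Mmp2 measured 4.32 FPKM in the library labelled control replicate 1 against 9.58 and 10.7 in the other controls. That library was the lowest for org-1 too. With all 3 targets Mmp2 measured 27.5, 30.2 and 19.5 FPKM. The genes outside the family were picked for likeness, so their shared highs and lows follow from the search. These likenesses describe 9 libraries in 3 groups and share the groups' differences.

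**Figure D4:**
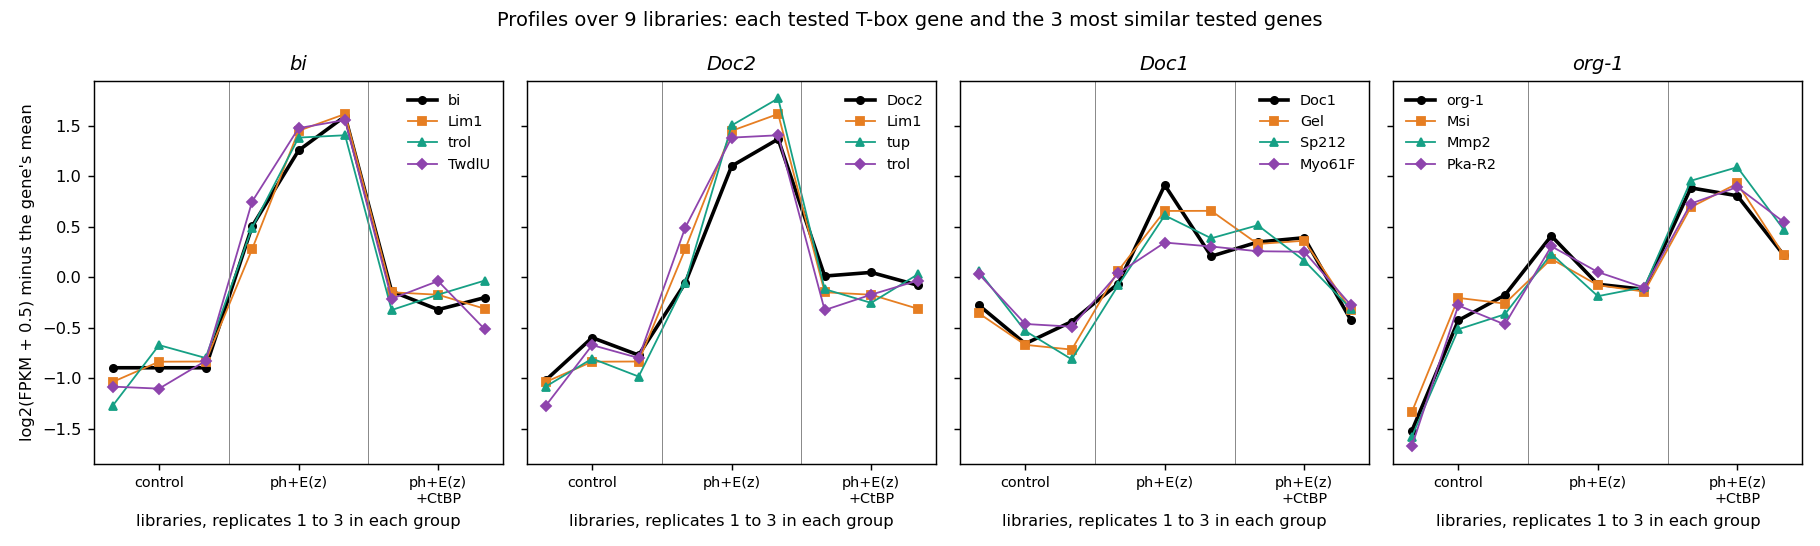
Profiles over the 9 libraries (replicates 1 to 3 in each group, left to right) of log2(FPKM + 0.5) minus the gene's mean. bi, Doc2, Doc1 and org-1 are in black. In colour are the 3 tested genes most similar to each, outside the family and not known by a CG or CR number only. bi and Doc2 share a peak in ph+E(z) replicates 2 and 3, and org-1 has its lowest point in the library labelled control replicate 1.

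The tested neighbours among the nearest protein-coding genes beside the T-box loci were not called, as most tested genes were not. Of 11 neighbours that are not members, 7 could be tested and 0 were called in any comparison by limma. Over all tested genes 3.92%, 3.72% and 9.73% were called in the 3 comparisons, so 0 of 7 is near these shares. Of the 7, 1, CG5194, had an unadjusted p under 0.05 with ph+E(z) RNAi, as did 1529 of all 8853 tested genes. CG5194 lies inside the Dorsocross cluster, 1.37 kb from Doc3 and 2.85 kb from Doc2, and was the most abundant neighbour. It measured 54.5, 51.8 and 58.1 FPKM in control libraries, 64.3, 94.0 and 104 with ph+E(z) RNAi, and 83.4, 82.2 and 47.9 with all 3 targets. CG5194 lay higher in all ph+E(z) libraries than in control, and groups did not overlap in 26.7% of tested genes in this comparison. It differed by 0.64 ± 0.25 and was not called (limma, adjusted p = 0.227). CG5144 (Argk2), 2.40 kb from Doc1, lay at 7.90 ± 1.73 FPKM in control and 6.59 ± 0.353 under ph+E(z) RNAi (-0.22 ± 0.24, adjusted p = 0.619). CG3626 and CG3556, the neighbours of bi at 41.7 and 44.6 kb, differed by -0.07 ± 0.12 and -0.16 ± 0.25 with ph+E(z) RNAi (0.755 and 0.728). CG12123, 5.34 kb from org-1, differed by -0.10 ± 0.24 (0.826). No protein-coding gene in both the annotation and the deposited file overlapped a member.

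The factors that work with the T-box genes in the embryo were in part raised by ph+E(z) RNAi. Of 20 dorsal mesoderm, heart and amnioserosa factors 8 could be tested, and 4 rose, 0 fell and 4 did not pass. Over all tested genes the shares called higher and lower were 2.58% and 1.34%, and 1.94% and 1.77% with the addition of CtBP RNAi. For all 3 targets against control they were 5.58% and 4.15%. The median log2 change was 1.31, where it was -0.00 over all tested genes. Of the 8, 3 were under 0.5 FPKM in every control library, namely ap, peb and tup. These qualified through treated libraries, where they were high, and could not fall. All 3 are among the 4 that rose, and the value of tup enters the median. The GATA factor gene pnr, which acts with Dorsocross in the heart and dorsal ectoderm, measured 1.72 ± 1.09 FPKM in control and 42.8 ± 5.5 under ph+E(z) RNAi, a log2 change of 4.43 ± 0.39 (limma, adjusted p = 0.000962). The LIM homeobox gene ap rose by 3.61 ± 0.33 and peb, a zinc finger gene of the amnioserosa, by 2.55 ± 0.28 (0.000974 and 0.00267). tup was the other call, at 2.03 ± 0.43 (0.0411), and this was lost without any library but ph+E(z) replicate 1 (0.0589 to 0.175), with 1 added to FPKM (0.0555), no filter (0.0508), quantile normalization (0.0516) and in the 2-group fit (0.118). With the addition of CtBP RNAi 0 of the 8 were called by limma, while tup (-1.19 ± 0.43) and peb (0.78 ± 0.28) had an unadjusted p under 0.05. For all 3 targets against control 3 were called higher, with a median of 0.86, and these were ap at 4.13 ± 0.33, peb at 3.33 ± 0.28 and pnr at 3.94 ± 0.39. The heart factor gene tin, at 0.688 FPKM or less in every library, was among the 12 below the filter, with zen, Kr and eve.

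Of 20 genes of the Dpp and Wg pathways, signals that switch on bi and Dorsocross in discs and embryo, 16 could be tested. Shares over all tested genes were 2.58% higher and 1.34% lower, then 1.94% and 1.77%, and 5.58% and 4.15% in the 3 comparisons. With ph+E(z) RNAi 1 rose, 0 fell and 15 stayed short of the threshold, and the list median was 0.01. The gene that rose was dpp itself, at 0.574, 0.652 and 0.505 FPKM in the controls, against 2.74, 2.2 and 2.88 under ph+E(z) RNAi, a log2 change of 1.52 ± 0.28 (limma, adjusted p = 0.0234). With CtBP also targeted dpp lay at 0.557, 0.253 and 1.12 FPKM and fell by 1.51 ± 0.28 (0.0246), so the libraries with all 3 targets spread across the control level. Omission of control 2 (0.0660), control 3 (0.0838), ph+E(z) 1 (0.0636), ph+E(z) 2 (0.0822) or ph+E(z) 3 (0.110) ended the call of the rise. Omission of ph+E(z) 1 (0.0676), ph+E(z) 2 (0.0810), ph+E(z) 3 (0.120), or library 1 (0.103) or 2 (0.0735) of those with all 3 targets ended the call of the fall. In the second comparison 1 of the 16 fell and 0 rose, with a median of 0.02. For all 3 targets against control 1 fell, the Wg receptor gene fz2, by 0.70 ± 0.18 (0.0434), and 0 rose. That call was lost without any library except control replicate 1 and replicate 3 with all 3 targets (0.0635 to 0.152), with no filter (0.0818) and in the 2-group fit (0.127). The ligand gene wg stayed below the filter, at 0.564 FPKM or less. With no filter the list gave 2 higher and 0 lower with ph+E(z) RNAi, dpp and wg (0.88 ± 0.13, adjusted p = 0.0140 by limma). For all 3 targets against control it then also gave 2 higher and 0 lower, wg (0.74 ± 0.13, 0.0165) and the Dpp antagonist gene sog (0.69 ± 0.13, 0.0212), both at low levels.

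Of 14 wing and optic lobe patterning genes that act with bi, 9 could be tested. With ph+E(z) RNAi 4 rose, 0 fell and 5 did not pass (median 1.99). Of the 9, 4 were under 0.5 FPKM in every control library, namely salr, vg, nub and dac. These qualified through treated libraries and could not fall. They include dac, nub and vg among the genes that rose, and salr, whose value is the median. The shares over all tested genes were 2.58% higher and 1.34% lower, then 1.94% and 1.77%, and 5.58% and 4.15% in the 3 comparisons. dac, a retinal determination gene, rose by 3.52 ± 0.23, hth, a homeobox gene, by 2.68 ± 0.39 and the POU gene nub, listed at 0 in all control libraries, by 2.1 ± 0.24 on this scale (limma, adjusted p = 0.00021, 0.00858 and 0.00278). The fourth was the wing selector vg, by 2.09 ± 0.34 (0.0137), a call that ended when control 2 (0.0511), ph+E(z) 2 (0.0788) or ph+E(z) 3 (0.0555) was omitted and in the 2-group fit (0.0538). With CtBP also targeted 1 of the 9 fell, vg, and 0 rose (median -0.04). vg lay at 1.15, 2.98 and 3.83 FPKM with ph+E(z) RNAi and 0.308, 0.490 and 0.391 with all 3 targets, a change of -1.71 ± 0.34 (0.0309). As for bi, ph+E(z) replicate 1 was the lowest of its group. This fall of vg was no longer called after omission of control 2 (0.0551), control 3 (0.0566), ph+E(z) 2 (0.143), ph+E(z) 3 (0.125), or library 1 (0.127), 2 (0.10) or 3 (0.0757) of those with all 3 targets. For all 3 targets against control 3 rose and 0 fell (median 1.15). These were dac by 2.73 ± 0.23, hth by 3.26 ± 0.39 and nub by 1.30 ± 0.24 (0.000539, 0.00253 and 0.0133). For nub the call ended after omission of library 1 (0.0628) or 2 (0.0551) of those with all 3 targets.

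Of 12 genes of the hindgut and tail network around byn, 7 could be tested. All tested genes gave shares of 2.58% higher and 1.34% lower, then 1.94% and 1.77%, and 5.58% and 4.15% in the 3 comparisons. With ph+E(z) RNAi 3 rose, 0 fell and 4 did not pass (median 1.56), while byn itself was listed at 0. Of the 7 tested, 2, drm and Fas3, were under 0.5 FPKM in every control library, qualified through treated libraries and could not fall. They were the posterior homeobox gene cad, from 0.643 ± 0.362 to 45.5 ± 14.1 FPKM (5.32 ± 0.31, limma, adjusted p = 0.000154), the hindgut morphogenesis gene drm (4.15 ± 0.27, 0.000192) and the adhesion gene Fas3 (2.80 ± 0.35, 0.00453). With CtBP also targeted 1 rose, bowl, a zinc finger gene, from 5.75 ± 0.324 to 18.1 ± 3.89 FPKM (1.55 ± 0.18, 0.00473), and 0 fell (median -0.04). For all 3 targets against control 4 rose and 0 fell (median 2.12), namely cad by 4.63 ± 0.31, drm by 3.81 ± 0.27, Fas3 by 3.48 ± 0.35 and bowl by 2.12 ± 0.18. tll, an activator of byn in the embryo, was listed at 0 in all libraries.

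All 14 Polycomb and CtBP genes could be tested. With ph+E(z) RNAi 2 rose, Psc by 3.15 ± 0.59 and Su(z)2 by 2.79 ± 0.55 (limma, adjusted p = 0.0247 and 0.0292), and E(z) fell by 1.90 ± 0.18 (0.0011). The ph genes ph-p and ph-d differed by -0.62 ± 0.46 and 0.38 ± 0.43 (0.486 and 0.629), and neither was called in any comparison. The calls of Psc and Su(z)2 both ended after omission of ph+E(z) 2 (0.110 and 0.127), ph+E(z) 3 (0.111 and 0.125) or library 1 with all 3 targets (0.0505 and 0.0559). In the 2-group fit neither was called (0.0856 and 0.0957). The call of Su(z)2 also ended after omission of ph+E(z) 1 (0.0528) or library 2 with all 3 targets (0.0557). With CtBP also targeted 1 fell, CtBP, by 2.06 ± 0.16 (0.00121), and 0 rose. Against control, all 3 targets gave 2 higher and 2 lower, with CtBP at -1.94 ± 0.16, E(z) at -1.91 ± 0.18, Su(z)2 at 2.63 ± 0.55 and Psc at 2.80 ± 0.59. Both of these rises were no longer called after omission of library 1 with all 3 targets (0.0909 for each) or library 2 (0.0859 for Su(z)2 and 0.0872 for Psc), and in the 2-group fit (0.0713 and 0.0754). The list medians were 0.04, -0.14 and -0.15 in the 3 comparisons. Among all tested genes 2.58% were called higher and 1.34% lower, then 1.94% and 1.77%, and 5.58% and 4.15%.

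**Figure D5:**
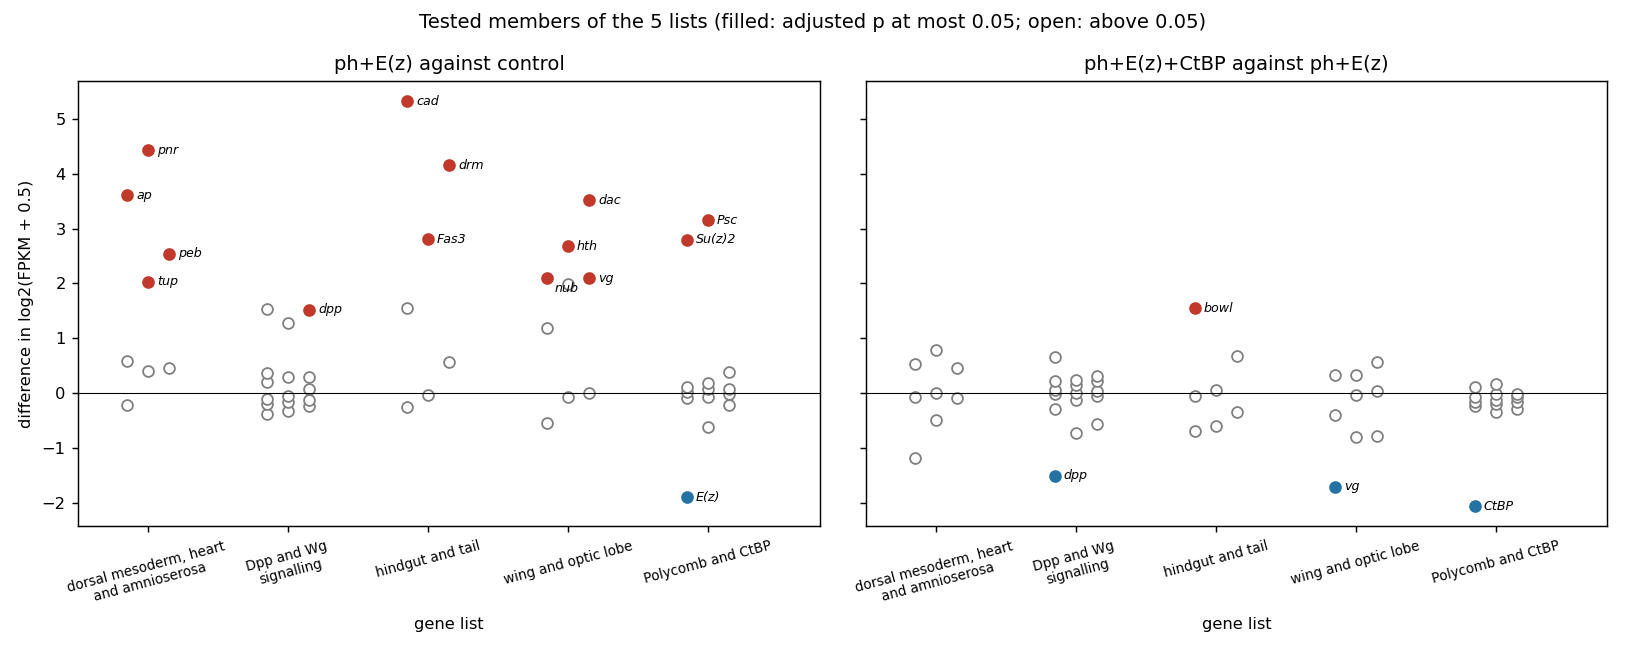
Differences in log2(FPKM + 0.5) of the tested members of 5 gene lists (columns) with ph+E(z) RNAi against control (left) and with the addition of CtBP RNAi (right), filled and named where the adjusted p was at most 0.05. Calls on the left are higher except E(z), and on the right dpp, vg and CtBP are lower and bowl is higher.

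Some markers of hemocyte, muscle, amnioserosa and hindgut type were called between groups, and those of heart and neuron were not. The part of the markers in the T-box values was not tested. The summed FPKM of 11 hemocyte markers was 1913 to 2450 in control, 10334 to 20031 with ph+E(z) RNAi and 2773 to 4481 with all 3 targets. Most of each sum was Nplp2, at 1043 to 1754, 9149 to 18688 and 2232 to 3992 FPKM. Of 10 tested, 3 rose and 1 fell with ph+E(z) RNAi, and 6 fell and 0 rose with the addition of CtBP RNAi. For all 3 targets against control 5 fell and 0 rose. Over all tested genes 2.58% were called higher and 1.34% lower, then 1.94% and 1.77%, and 5.58% and 4.15% in these comparisons. The 10 muscle markers summed to 6.07 to 7.19, 9.75 to 11.7 and 14.9 to 20.4 FPKM, the same order as the group means of org-1. Most of each sum was Mlc2, at means of 4.76, 8.08 and 12.4 FPKM. The means of Mhc, Mlc1, wupA and bt kept this order, and those of up, Act57B, Act88F and Tm2 did not. Both tested markers, Mlc2 and wupA, were called higher for all 3 targets against control, and sls was at 0 throughout. The 4 heart markers summed to 3.30 to 4.65, 2.88 to 3.91 and 3.88 to 5.05 FPKM, with 0 of 2 called. The 3 amnioserosa markers summed to 0.273 to 0.330, 2.87 to 6.06 and 5.77 to 9.68 FPKM. peb, the 1 tested, made up most of each sum and was called higher in both treated groups against control. The 3 hindgut markers summed to 14.4 to 45.8, 91.5 to 98.3 and 58.5 to 75.3 FPKM, with 1 of 2 tested higher, Fas3, and otp at 0.0545 FPKM or less. Most of each sum was fkh, at means of 34.1, 89.9 and 59.3 FPKM, which was called in no comparison. fkh lay at 14.1 FPKM in the library labelled control replicate 1, against 45.5 and 42.5 in the other controls. The 6 neuron markers summed to 7.42 to 25.6, 18.8 to 23.9 and 21.7 to 27.7 FPKM, and 0 of 4 tested were called.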

How the data were processed

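The authors deposited 1 matrix of FPKM per gene and library. Bowtie2 2.2.6, TopHat2 2.1.0, Cufflinks, Cuffdiff, R 3.2.3 and the build dm6 are named, with no roles, per the submitters' processing notes. Per the file headers, q-values for 2 comparisons were also deposited by the authors, and they were copied, not recomputed. The deposited positions are mostly not those of dm6: 1 of the 8 starts lies within 1 base, so coordinates come from the Ensembl annotation of dm6.

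Genes with at least 0.5 FPKM in 3 of 9 libraries were fitted with limma 3.58.1 in R 4.3.3, with 3 groups and trended moderation, on log2(FPKM + 0.5), which understates changes of low genes. P-values were adjusted by Benjamini-Hochberg with a threshold of 0.05. The test was tested on simulated data. Fragments were obtained by dividing FPKM by the value of 1 fragment on a transcript length. That length was annotated or, for Doc1, Doc3, mid and H15, chosen to give values nearest to whole multiples. No sequences were used here. Members and gene lists were chosen with earlier results of these data known. Named were all members, the 3 targets, up to 3 called genes a list and comparison, and the 3 most similar genes outside the family. That search left out genes known by a CG or CR number only. tup, Fas3, vg, Psc, salr, wg and sog beyond this rule, markers and neighbours were named after their values were seen. Alternatives were other pseudocounts, filters, scalings and variance settings, a 2-group fit, a replicate block and leaving out each library.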

Additional observations from a re-analysis of the deposited data

How the results depend on the processing

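The number of genes called, 347, 329 and 861 for ph+E(z) RNAi against control, the addition of CtBP RNAi, and all 3 targets against control, became 2924, 2396 and 3278 with array weights and 210, 793 and 378 with the 2 compared groups alone. Leaving out 1 library gave 108 to 602, 89 to 1191 and 298 to 1541. The T-box genes called, 2, 1 and 0, then ranged over 1 to 2, 0 to 2 and 0 to 1. For ph+E(z) RNAi against control 1 was called with 1 added to FPKM, no filter, quantile normalization, the 2-group fit and the block, and 0 with at least 1 FPKM required, where bi could not be tested. With the addition of CtBP RNAi 0 were called with 0.1 added, with at least 1 FPKM required and with the block, and 3 with array weights. For all 3 targets against control 1 was called with 0.1 added (bi), 1 added or quantile normalization (org-1), and 3 with array weights. Of the single-gene changes 812 stayed on their side of the threshold, 87 lost a call, 12 gained one and 2 reversed, both of Doc1 with the addition of CtBP RNAi (0.0334 when ph+E(z) 2 was omitted and 0.0172 when library 3 with all 3 targets was, in a leave-one-out range of -0.455 to 0.0334). The cause was not tested.

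Same-numbered libraries were not shown to be paired: the correlations of their deviations ran from -0.137 to 0.197, 2 of 9 pairs were over 0.1, and 2 of 9 were the closest for both libraries. The replicate block gave 212, 241 and 593 calls; under it the calls ended for the fall of bi (0.0854) and the rise of Doc2 (0.0592), as for the rises of dpp (0.0502) and tup (0.0576) and the falls of vg (0.0502) and fz2 (0.0711); it ended no other call of a named member or list gene. Depth limits Doc1, Doc3, mid, H15 and byn, which held at most 12 fragments a library.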
